A study of Mus musculus with 6 samples.

Results

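Ciita and the DNA-binding factors that it joins on the promoters of the major histocompatibility complex (MHC) class II genes were followed in CD11b+ cells of mouse spleen. The 8 genes were chosen by symbol from the deposited count table, which holds 55335 genes: Ciita itself, the RFX subunits Rfx5, Rfxank and Rfxap, the NF-Y subunits Nfya, Nfyb and Nfyc, and Creb1. All 8 were found and all 8 passed the filter on low counts, with 204 counts (Rfxap) or more in every library. Bulk RNA was sequenced from wild-type mice with myocardial infarction (group MI, 3 biological replicates) and from wild-type mice with myocardial infarction and renal denervation, in which the nerves of the kidney are destroyed (group MI+RDN, 3 biological replicates). Every library therefore comes from a mouse with an infarct, and the comparison asks what denervation adds to it. Cells had been sorted for CD11b, an integrin of neutrophils, monocytes, macrophages and some dendritic and lymphoid cells. The labels used here give no strain, sex, age or time after infarction, and do not say whether a replicate is 1 mouse or a pool.

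Class II molecules present peptides to CD4 T cells, and their transcription works by a switch on a scaffold. RFX, NF-Y and CREB bind side by side to conserved X and Y boxes just upstream of each class II gene and are made in most cell types. Ciita does not bind DNA itself. It docks on the assembled factors, brings in chromatin and transcription machinery, and is made mainly in B cells, dendritic cells and, after interferon-gamma, macrophages. Loss of CIITA, RFX5, RFXANK or RFXAP in people causes the bare lymphocyte syndrome.

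The scaffold can be read in the promoters of the genes that Ciita serves. The sequences below show the stretch around the Y box, the site of NF-Y, in class II genes whose values are given later. They come from RefSeq promoter windows of build GRCm38.p6 that run from 250 bases before to 50 after a gene's start, and positions are counted from that start at 0. The authors' counts used GRCm39, so these coordinates belong to the older build only. Each is written 5′ to 3′ on the gene's strand, with capitals for CCAAT or its complement ATTGG, for the CREB octamer TGACGTCA and for the X box letters GCAAC, 1 base of any kind and GATG.
H2-Aa (chr17:34287842-34287931, minus strand): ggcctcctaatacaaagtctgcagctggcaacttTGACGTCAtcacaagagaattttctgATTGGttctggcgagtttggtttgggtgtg
H2-Eb1 (chr17:34305748-34305837, plus strand): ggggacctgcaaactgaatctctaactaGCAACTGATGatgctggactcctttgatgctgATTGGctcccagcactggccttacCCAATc
H2-Eb2 (chr17:34325515-34325604, plus strand): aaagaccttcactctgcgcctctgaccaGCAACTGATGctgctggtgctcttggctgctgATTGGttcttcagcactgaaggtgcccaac
H2-DMb1 (chr17:34153070-34153159, plus strand): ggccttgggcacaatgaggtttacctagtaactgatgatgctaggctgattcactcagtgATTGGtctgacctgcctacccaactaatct
H2-DMb2 (chr17:34145099-34145188, plus strand): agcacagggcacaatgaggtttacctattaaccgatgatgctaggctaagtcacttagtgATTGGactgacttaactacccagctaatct
H2-Oa (chr17:34092276-34092365, plus strand): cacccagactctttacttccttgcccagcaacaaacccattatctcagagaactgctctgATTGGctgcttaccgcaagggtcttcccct
H2-Ob (chr17:34238788-34238877, plus strand): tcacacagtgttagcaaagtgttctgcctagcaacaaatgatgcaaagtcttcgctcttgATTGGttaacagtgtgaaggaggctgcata

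CCAAT, searched on both strands, was found in 8 of the 8 class II genes with a window, against 41.1% of all 27025 genes with one. In the 7 genes printed above ATTGG on the gene's strand began between -100 (H2-Eb2) and -43 (H2-Oa). H2-DMa held it only in its window for another start, at -198. The octamer TGACGTCA stood in H2-Aa, ending 18 bases before ATTGG, and in 2.03% of all genes. The X box letters, chosen after these windows had been read and searched on both strands, stood in H2-Eb1 and H2-Eb2, in both ending 22 bases before ATTGG, and in 0.215% of all genes. Matches describe letters in these windows and show no binding.

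Among the 8 factors, Ciita and Rfx5 were lower in MI+RDN and the other 6 did not pass the test. Ciita fell 2.23-fold and Rfx5, the RFX subunit that contacts the X box, fell 1.68-fold. The other RFX subunits, all 3 NF-Y subunits and Creb1 had log2 fold changes between -0.25 and 0.039. Of the 8 factors 2 were called lower and 0 higher, against 0.714% lower and 0.296% higher of 14849 genes tested (edgeR quasi-likelihood test, Benjamini-Hochberg adjusted p below 0.05). Those shares were 106 genes lower and 44 higher, and became 413 and 62 without scaling factors. At an unadjusted p below 0.05, edgeR gave 3 of the 8 lower and 0 higher, against 10.1% and 9.83% of all genes. DESeq2 called 2 of the 8 lower and 0 higher, against 4.07% and 3.78% of all genes, and limma-voom called 1 lower and 0 higher, against 0.552% and 0.195%. All values below are CPM, a gene's counts scaled to a common library size after TMM scaling, and all fold changes are MI+RDN over MI.

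Ciita (ENSMUSG00000022504), the class II transactivator, stood at 165, 174 and 211 CPM in MI replicates 1 to 3 and, after denervation, at 81.0, 76.5 and 89.1 CPM in MI+RDN replicates 1 to 3. The groups did not overlap, with MI replicate 3 the highest library and the MI+RDN libraries close together. The log2 fold change was -1.16 with an interval of 95% from -1.43 to -0.88 (SE 0.12, edgeR Benjamini-Hochberg adjusted p = 0.0133), which placed Ciita at rank 12 of all tested genes by p. Ciita missed the threshold when MI replicate 2 (edgeR adjusted p = 0.0736), MI replicate 3 (0.0623) or MI+RDN replicate 1 (0.0885) was left out. In these fits, in that order, edgeR called 1, 0 and 0 of all tested genes lower and 3, 0 and 0 higher. The log2 fold change of Ciita stayed between -1.24 and -1.04 with any 1 library left out. Dexi, a gene on the opposite strand, shares 329 exonic bases with Ciita but held only 4.27% as many counts. Bulk RNA cannot tell fewer Ciita-expressing cells from less Ciita RNA per cell.

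Rfx5 (ENSMUSG00000005774), the large subunit of RFX, stood at 36.0, 35.5 and 45.8 CPM in MI and at 23.9, 22.3 and 23.7 CPM in MI+RDN. As for Ciita, MI replicate 3 was highest and the groups did not overlap. The log2 fold change was -0.75, with an interval from -1.03 to -0.46 (SE 0.12, edgeR Benjamini-Hochberg adjusted p = 0.0439). That call was near the threshold and was lost with any 1 library left out (edgeR adjusted p from 0.071 to 0.135). Those fits called 0 to 37 of all tested genes lower. The call was also lost with limma-voom (adjusted p = 0.0501), without a filter (edgeR, 0.0873) and with a replicate block (edgeR, 0.0632). The promoter window of Rfx5 holds CCAAT at -113 and -54, shown in capitals because Rfx5 was the other factor that was lower. CCAAT was found in 4 of the 6 factors with a window, against the 41.1% given above.
Rfx5 (chr3:94953970-94954079, plus strand, GRCm38.p6): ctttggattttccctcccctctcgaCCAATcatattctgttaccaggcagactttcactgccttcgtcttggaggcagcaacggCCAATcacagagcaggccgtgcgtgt

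**Figure D1:**
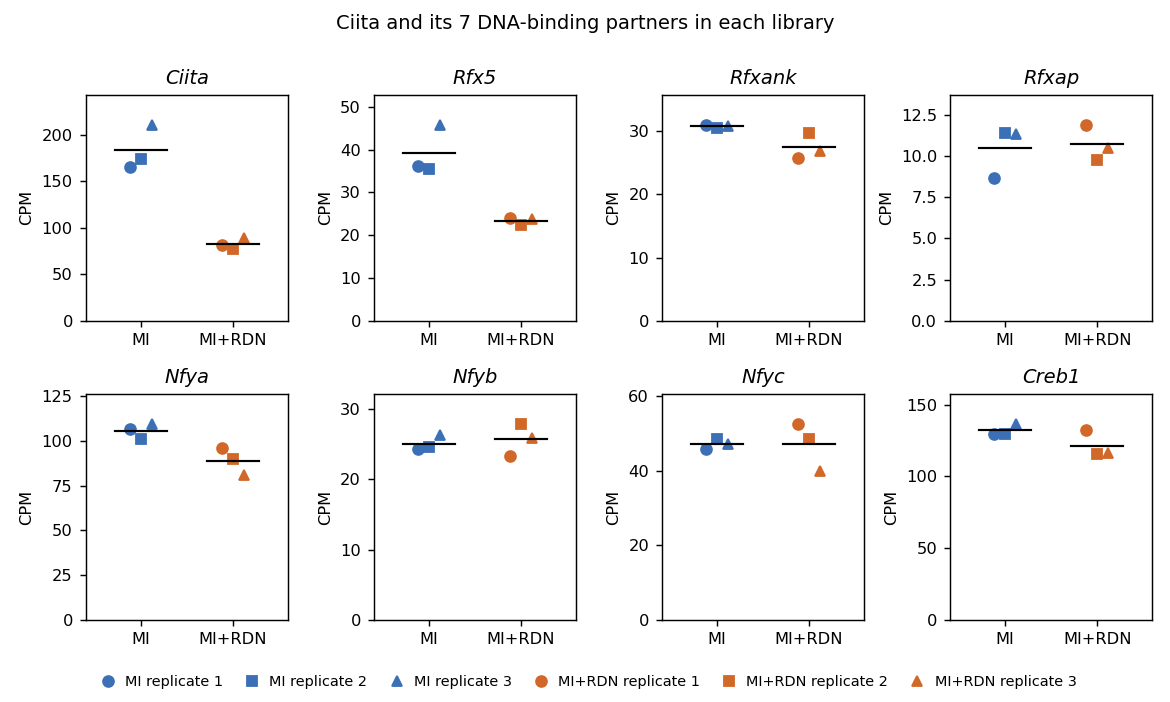
CPM of each factor in each library, with 1 panel per gene, 1 point per library, a black line at the mean of the 3 libraries of a group, and each vertical axis starting at 0. Ciita, Rfx5, Rfxank and Nfya do not overlap between MI (blue) and MI+RDN (orange), with the widest separation for Ciita and Rfx5. Rfxap, Nfyb, Nfyc and Creb1 overlap.

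The other RFX subunits did not follow Rfx5 past the threshold. Rfxank (ENSMUSG00000036120), the ankyrin-repeat subunit, stood at 31.1, 30.5 and 30.9 CPM in MI and at 25.7, 29.7 and 26.8 CPM in MI+RDN. The groups did not overlap, but the log2 fold change was only -0.17 (interval -0.39 to 0.056, edgeR adjusted p = 0.375). Rfxank shares 1341 exonic bases with Nr2c2ap on the opposite strand, which held 25.1% as many counts, and the strand setting of the counting is not given in the sources used here. Rfxap (ENSMUSG00000036615), the RFX-associated protein, was the lowest of the 8 in counts, at 8.69, 11.4 and 11.4 CPM in MI and 11.9, 9.79 and 10.5 CPM in MI+RDN. Its groups overlapped, and its log2 fold change of 0.034 had an interval from -0.34 to 0.41 (edgeR adjusted p = 0.93).

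NF-Y binds the Y box as a trimer of Nfya, which reads the CCAAT sequence, with the histone-fold subunits Nfyb and Nfyc. Nfya (ENSMUSG00000023994) stood at 106, 101 and 109.7 CPM in MI and at 96.3, 89.9 and 81.0 CPM in MI+RDN. Its groups did not overlap, yet the log2 fold change of -0.25 did not pass (interval -0.46 to -0.031, edgeR adjusted p = 0.2). Nfyb (ENSMUSG00000020248) stood at 24.3, 24.6 and 26.3 CPM in MI and at 23.4, 27.9 and 26.0 CPM in MI+RDN, with a log2 fold change of 0.039 (interval -0.21 to 0.29, edgeR adjusted p = 0.874). Nfyc (ENSMUSG00000032897) stood at 46.0, 48.5 and 47.2 CPM in MI and at 52.7, 48.7 and 39.9 CPM in MI+RDN, with a log2 fold change of -0.0036 (interval -0.27 to 0.26, edgeR adjusted p = 0.991). Both histone-fold subunits overlapped between the groups, with MI+RDN libraries on either side of the MI range.

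Creb1 (ENSMUSG00000025958), the cyclic AMP response factor that sits on the X2 element, stood at 129.8, 129.7 and 137 CPM in MI and at 132, 116 and 116 CPM in MI+RDN. MI+RDN replicate 1 lay within the MI range, and the log2 fold change was -0.12 (interval -0.33 to 0.083, edgeR adjusted p = 0.483). Over the 6 factors that were not called, the intervals ran from 0.726-fold (Nfya) to 1.33-fold (Rfxap), so larger changes lay outside them. The interval of Ciita did not reach any of these 6 intervals, and whether the fold changes differ was not tested. Groups without overlap, lower in MI+RDN, were seen in 4 of the 8 factors (Ciita, Rfx5, Rfxank and Nfya) and in 13.7% of all tested genes, and groups higher without overlap in 0 of the 8 and 12.4%.

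Levels were compared between factors per kb of the principal transcript of GENCODE M21. In MI, Ciita stood highest at 30.5 ± 4.04 CPM per kb (SD, n = 3), followed by Nfya at 28.5 ± 1.21, Creb1 at 26.4 ± 0.816 and Nfyc at 23.5 ± 0.616. Ciita overlapped Nfya in single libraries, so the order of these neighbours is not set by the data. Rfxap stood at 15.1 ± 2.23 CPM per kb, on a principal transcript of only 696 bases, and its GENCODE model is the shortest of the 8. Nfyb at 9.82 ± 0.425, Rfx5 at 9.03 ± 1.34 and Rfxank at 8.54 ± 0.0738 CPM per kb were the lowest, and the range of Rfx5 covered every library of Nfyb and Rfxank. In MI+RDN, Ciita stood at 13.7 ± 1.06 CPM per kb, below Nfya (24.0 ± 2.08), Creb1 (24.2 ± 1.86) and Nfyc (23.5 ± 3.25) in every library. Rfx5 was then the lowest, at 5.38 ± 0.203 CPM per kb against 7.60 ± 0.576 for Rfxank. With the union of all exons as the length, Ciita also had the highest mean in MI (19.2 CPM per kb) and a lower mean than Nfyc, Nfya and Creb1 in MI+RDN (8.62 against 16.0, 12.2 and 8.84), and Rfxap moved to the lowest place in MI (4.68).

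**Figure D2:**
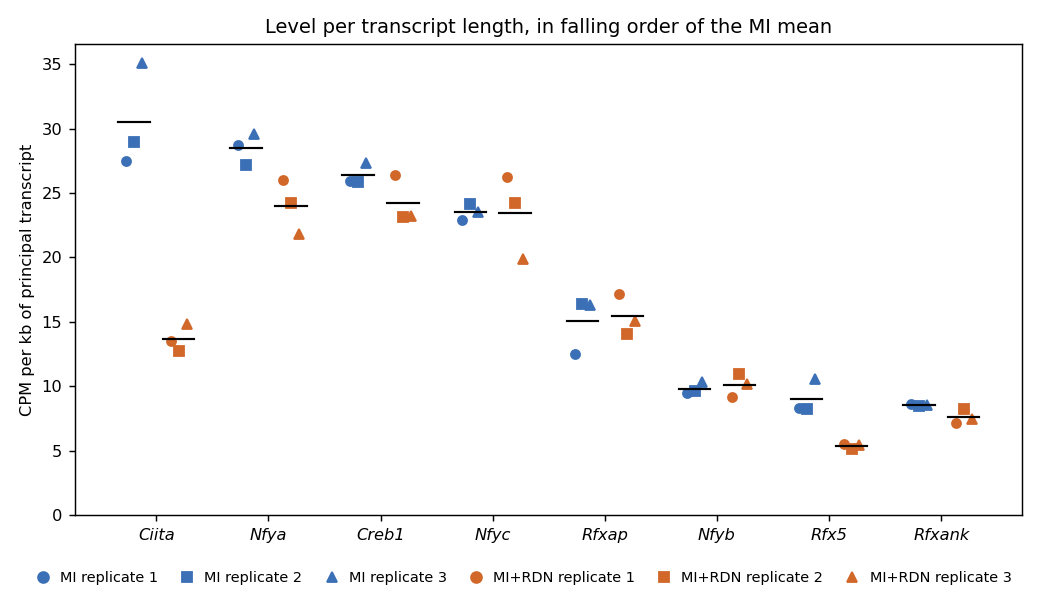
Level of each factor per kb of principal transcript, on a linear axis from 0, with 1 point per library and a black line at each group mean, in falling order of the MI mean. Ciita is at 30.5 CPM per kb in MI and 13.7 in MI+RDN, while the group means of Nfya, Creb1 and Nfyc stay between 23.5 and 28.5.

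Of 10 class II targets of the complex, 7 were called lower and 0 higher, against 0.714% and 0.296% of all tested genes. In 10 of 10 the groups did not overlap and MI+RDN was lower, against 13.7% of all tested genes. At an unadjusted p below 0.05, edgeR gave 10 lower and 0 higher, against 10.1% and 9.83%. Leaving out 1 library left 1, 0 and 0 of the 10 called lower without MI replicates 1 to 3. Without MI+RDN replicates 1 to 3, 0, 1 and 3 were left. Over all tested genes those fits called 10, 1 and 0 lower, and then 0, 37 and 25 lower, in the same order. The median log2 fold change of the 10 ran from -1.17 to -0.90 in them. The median over all 6 libraries for the 10 was -1.06, against 0.0080 over all tested genes. This list was chosen with earlier results of these data known, and its fall was one of them.

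The classical chain genes H2-Aa, H2-Ab1 and H2-Eb1, and H2-Eb2, were called lower. H2-Eb2, a less abundant beta chain gene, stood at 19.3, 21.8 and 24.2 CPM in MI and at 9.89, 9.39 and 10.1 CPM in MI+RDN, a log2 fold change of -1.15 (edgeR adjusted p = 0.0181). H2-Aa, the alpha chain of the A molecule, stood at 1131, 1354 and 1897 CPM in MI and at 612, 651 and 710.0 CPM in MI+RDN, a log2 fold change of -1.15 (edgeR adjusted p = 0.0462). H2-Ab1, its beta chain, had -1.04 and H2-Eb1, the beta chain of the E molecule, -1.15. In each of these 4 genes MI replicate 3 was the highest library, as it was for Ciita and Rfx5.

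The genes of peptide loading were less uniform in size of change. H2-Oa and H2-Ob, the chains of the DO molecule that restrains loading, had log2 fold changes of -1.12 and -1.07 and were called lower. H2-DMb2, a beta chain of the DM molecule that loads peptides, was called lower at -0.93, whereas H2-DMb1 had -0.67 (edgeR adjusted p = 0.0539) and the DM alpha chain H2-DMa had -0.47 (0.111), and neither passed. H2-DMb1 and H2-DMb2 are close paralogs and may share reads, and 360 exonic bases of H2-DMa also belong to Brd2 on the opposite strand, which held 296% as many counts. Cd74, the invariant chain that guards the peptide groove, stood at 2582, 3111 and 3978 CPM in MI and at 1416, 1615 and 1700 CPM in MI+RDN, and its log2 fold change of -1.03 did not pass (edgeR adjusted p = 0.0523). The groups did not overlap in any of the 3 targets that missed the threshold.

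**Figure D3:**
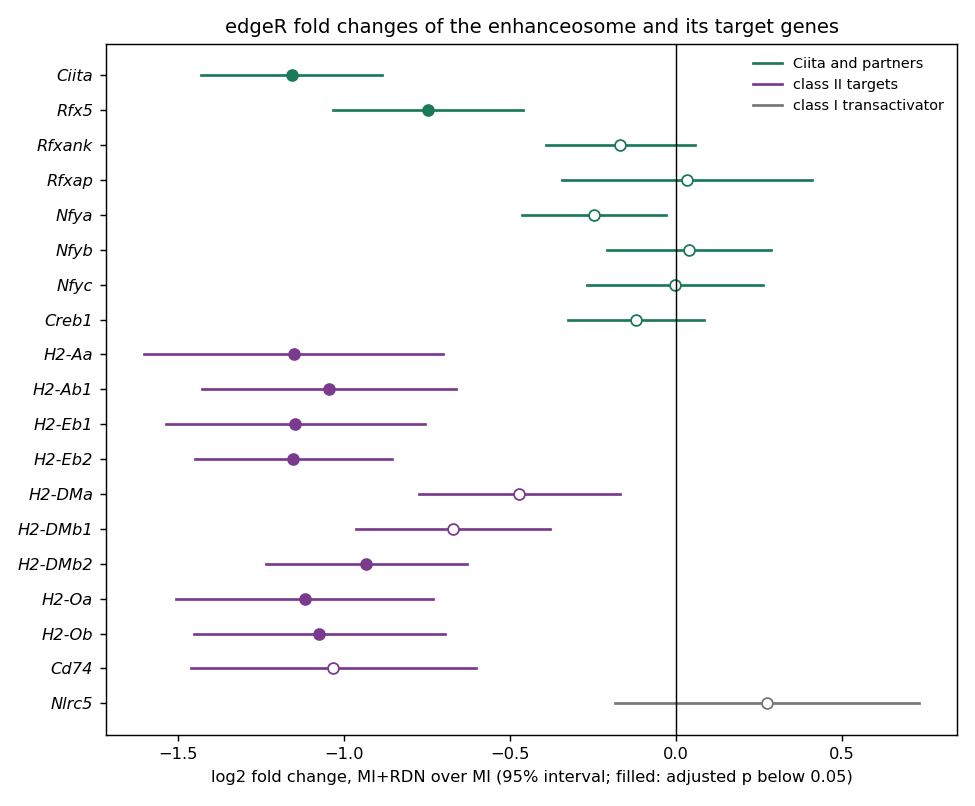
log2 fold change of MI+RDN over MI with its interval of 95% for the 8 factors (green), the 10 class II targets (purple) and Nlrc5 (grey), where a filled point has an edgeR adjusted p below 0.05. Ciita at -1.16 sits level with most class II targets, Rfx5 at -0.75 lies between H2-DMb2 (-0.93) and H2-DMb1 (-0.67), and the other 6 factors lie between -0.25 and 0.039.

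Nlrc5, the class I counterpart of Ciita that docks on the same RFX, NF-Y and CREB scaffold, averaged 86.2 ± 14.9 CPM with MI alone and 104 ± 26.6 CPM with denervation (SD, n = 3). Its log2 fold change was 0.27, with an interval from -0.18 to 0.73 (edgeR adjusted p = 0.479). Of 7 class I pathway targets of Nlrc5, 0 were called in either direction by edgeR, DESeq2 or limma-voom. The all-gene shares, lower and higher, were 0.714% and 0.296% (edgeR), 4.07% and 3.78% (DESeq2), and 0.552% and 0.195% (limma-voom). At an unadjusted p below 0.05, edgeR gave 0 lower and 2 higher, against 10.1% and 9.83% of all tested genes. All 7 log2 fold changes were above 0. Groups did not overlap in 3 of the 7, higher in MI+RDN, and in 0 lower, against 12.4% and 13.7% of all tested genes. The median log2 fold change of the 7 was 0.30, with Psmb9 at 0.40 and H2-D1 at 0.41 (edgeR adjusted p = 0.128 and 0.219).

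Relatives of the scaffold factors and their coactivators, some of which could share the sites of the scaffold, were also measured. Of 13 RFX, CREB and coactivator relatives, Nlrc5 among them, 10 passed the filter. Of these 10, 0 were called by edgeR, near the 0.714% lower and 0.296% higher of all tested genes. At an unadjusted p below 0.05, 1 was lower and 2 higher, against 10.1% and 9.83% of all tested genes. DESeq2 called 1 lower and 1 higher, against 4.07% and 3.78%. Rfx7 averaged 74.9 ± 4.02 CPM with MI alone and 56.2 ± 5.56 with denervation, and Rfx2 43.6 ± 7.14 and 78.3 ± 21.9 (SD, n = 3), with edgeR adjusted p of 0.0816 and 0.0974. Rfx6 and Rfx8 had 0 counts in all 6 libraries. Among 16 other known targets of NF-Y or CREB, such as cell cycle and immediate early genes, 0 were called by edgeR, DESeq2 or limma-voom. The edgeR and DESeq2 shares of all tested genes are given above, and those of limma-voom were 0.552% lower and 0.195% higher. Of the 16, 1 was lower and 0 higher at an unadjusted p below 0.05 by edgeR, against 10.1% and 9.83%. Their median log2 fold change was 0.097, and the lowest p belonged to Hspa5 (-0.24) and Sik1 (-0.44).

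Upstream of Ciita, 17 genes were examined: the interferon-gamma receptor and its signalling chain, factors that bind the Ciita promoters, and known repressors. By edgeR 0 of 17 were called in either direction, near the 0.714% lower and 0.296% higher of all tested genes. At an unadjusted p below 0.05, edgeR gave 4 lower and 1 higher, against 10.1% and 9.83% of all tested genes. The 4 lower were Pax5, Irf8, Tcf4 and Prdm1, and the 1 higher was Spi1. Pax5, Tcf4 and Prdm1 are also among the markers of B cells, plasmacytoid dendritic cells and plasma cells used below. DESeq2 called 3 lower and 0 higher, against 4.07% and 3.78%. The median log2 fold change of the 17 was 0.052. Pax5, the B cell identity factor, averaged 63.5 ± 8.61 CPM with MI alone and 29.95 ± 10.96 with denervation, and Irf8, a factor of dendritic cells and monocytes, 201 ± 23.8 and 148 ± 4.87 (SD, n = 3). Neither passed (edgeR adjusted p = 0.069 and 0.0783). Genes of the interferon-gamma route, picked out after their values were seen, had log2 fold changes of -0.0089 (Ifngr1), 0.087 (Jak1) and 0.17 (Irf1), with groups that overlapped in all 3. Prdm1, a repressor of Ciita in plasma cells that is also among the plasma cell markers, had a log2 fold change of -0.52 and did not pass (edgeR adjusted p = 0.111).

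The machinery that Ciita recruits, or that silences it, was examined as a further list. Of 21 coactivator and repressor genes, 0 were called by edgeR, near the 0.714% lower and 0.296% higher of all tested genes. At an unadjusted p below 0.05, 2 were lower and 2 higher, against 10.1% and 9.83% of all tested genes. DESeq2 called 0 lower and 1 higher, against 4.07% and 3.78%. Cdk9, the kinase that releases paused polymerase, averaged 133 ± 0.861 CPM with MI alone and 159 ± 2.37 with denervation, and Kmt2a, a histone methyltransferase, 118 ± 9.92 and 94.0 ± 11.02 (SD, n = 3). Neither passed (edgeR adjusted p = 0.123 and 0.167), and the median log2 fold change of the list was 0.016.

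Markers of the cell types that the CD11b gate could hold were measured in the same libraries. Over all tested genes, edgeR called 0.714% lower and 0.296% higher. The all-gene shares were 10.1% and 9.83% at an edgeR unadjusted p below 0.05, and 4.07% and 3.78% by DESeq2. Itgam, which encodes CD11b, ran from 1011 to 1301 CPM with MI alone and from 1489 to 1666 with denervation, without passing the test (edgeR adjusted p = 0.109). The 12 conventional dendritic cell markers had counts above 0 in every library and a summed level of 805 to 1097 CPM with MI alone and 497 to 620.5 with denervation. Of these, 8 were lower at an unadjusted p below 0.05 by edgeR and DESeq2 called 7 lower, and by the edgeR adjusted p 3 were called lower (Zbtb46 at -1.15, Cd209a at -2.15 and Clec10a at -1.16 on the log2 scale) and 0 higher, and Itgax, the most abundant, had -0.43. The 12 B cell markers summed to 615 to 901 CPM with MI alone and 322 to 508 with denervation. By edgeR 0 of them were called, 12 were lower at an unadjusted p below 0.05 and DESeq2 called 10 lower. Their lowest p belonged to Fcer2a and Ebf1 (edgeR adjusted p = 0.0523 and 0.0539), and Cd22, the most abundant, had -0.76. The calls of Zbtb46, Cd209a and Clec10a were each lost with any 1 library left out (edgeR adjusted p from 0.0524 to 0.135). Those fits called 0 to 37 of all tested genes lower. Dendritic cells and B cells both carry Ciita, and the part of their markers in its fall was not tested. The covariate fits given next cannot apportion it, because both marker means separated the 2 groups without overlap and so largely follow the grouping itself.

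Ciita was set beside these markers library by library, as log2 CPM minus its mean over the 6 libraries. Ciita stood at 0.43, 0.51 and 0.79 in MI replicates 1 to 3 and, in the same order, at -0.59, -0.68 and -0.46 in MI+RDN. The dendritic cell markers stood on average at 0.22, 0.25 and 0.81 and at -0.49, -0.46 and -0.33. The B cell markers stood at 0.47, 0.28 and 0.86 and at -0.86, -0.72 and -0.035. MI+RDN replicate 3 was the highest library of its group for Ciita and for both marker lists. MI replicate 3 was the highest library for Ciita, both marker lists and the class II targets, and the lowest for neutrophil markers (-0.80). When the fit held the B cell marker mean constant, the log2 fold change of Ciita was -0.81 (SE 0.21, edgeR unadjusted p = 0.00613, adjusted p = 0.791). That of Rfx5 was -0.48 (edgeR unadjusted p = 0.0918). When it held the dendritic cell marker mean constant, that of Ciita was -0.65 (SE 0.19, edgeR unadjusted p = 0.0119, adjusted p = 0.998). That of Rfx5 was then -0.23 (edgeR unadjusted p = 0.318). In these fits edgeR called 13 and 0 of all tested genes, with 726 and 566 at an unadjusted p below 0.05. The median of the 10 class II targets was -0.54 and -0.35 in the same fits.

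Subtracting a list's mean from Ciita gives its level relative to that list. Relative to the dendritic cell markers, Ciita stood at 0.21, 0.26 and -0.020 in MI and at -0.0995, -0.22 and -0.13 in MI+RDN on the log2 scale. These groups did not overlap, with MI replicate 3 nearest to the MI+RDN libraries. Relative to the B cell markers it stood at -0.040, 0.23 and -0.077 in MI and at 0.26, 0.047 and -0.42 in MI+RDN, which overlapped. Relative to the mean of its 7 partners, Ciita stood at 0.41, 0.43 and 0.62 in MI and at -0.56, -0.60 and -0.31 in MI+RDN. Every MI library was above every MI+RDN library in that measure.

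**Figure D4:**
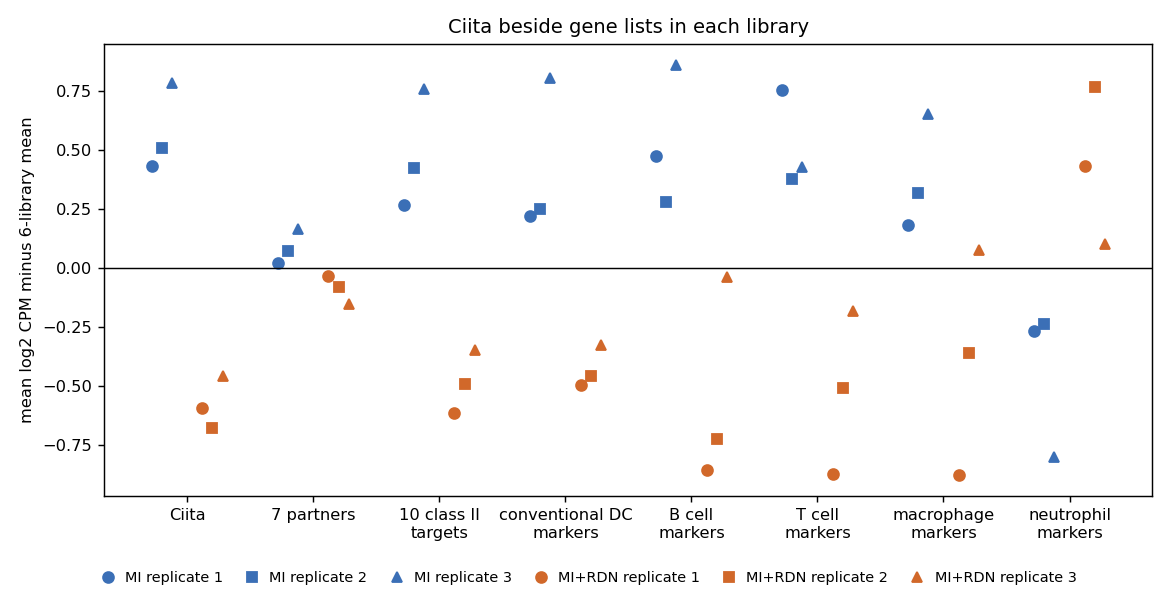
Mean log2 CPM of Ciita and of 7 gene lists in each library, relative to the mean of the 6 libraries, with 1 point per library. Ciita, the class II targets and the dendritic, B and T cell markers are above 0 in MI and below 0 in MI+RDN. The 7 partners have the same signs but stay between -0.15 and 0.16, and neutrophil markers are the other way round.

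Other cell types were counted in the same way. The all-gene shares, lower and higher, were 0.714% and 0.296% for edgeR calls and 4.07% and 3.78% for DESeq2 calls. They were 10.1% and 9.83% at an edgeR unadjusted p below 0.05. T cell markers summed to 61.1 to 77.0 CPM with MI alone and 29.3 to 43.3 with denervation, with 1 of 8 called lower (Cd3d at -1.47), 0 higher, and Lck at -0.63. In that list 8 of 8 were lower at an unadjusted p below 0.05 by edgeR, and DESeq2 called 6 lower. Macrophage markers summed to 499.9 to 654 and 299.6 to 445 CPM, with 0 of 8 called by edgeR, 5 lower and 0 higher at an unadjusted p below 0.05 and 3 lower by DESeq2, and the lowest p for Mrc1 (-1.39) and Spic (-0.93). Neutrophil markers summed to 13745 to 21420 CPM with MI alone and 26171 to 40318 with denervation, with 2 of 10 called higher (Retnlg at 1.26 and Ly6g at 1.55) and 0 lower. At an unadjusted p below 0.05, edgeR gave 6 of the 10 neutrophil markers higher, and DESeq2 called 6 higher. Retnlg and Ly6g each passed in 1 of the 6 fits that left out a library, and Cd3d and Ly6c2 in 0 of them. Those fits called 0 to 37 of all tested genes lower and 0 to 30 higher. Monocyte markers summed to 5560 to 6571 CPM with MI alone and 5185 to 6124 with denervation. Among these 8 markers 1 was called higher (Ly6c2 at 0.92) and 0 lower, and Cx3cr1 had -0.65. Log2 fold changes were below 0 in 6 of the 8, with a median of -0.22. At an unadjusted p below 0.05, edgeR gave 1 lower and 1 higher, and DESeq2 called 1 lower and 1 higher. Plasma cell, plasmacytoid dendritic cell and NK cell markers had 0 of 5, 0 of 5 and 0 of 6 tested members called by edgeR, with 1, 3 and 1 lower at an unadjusted p below 0.05, and DESeq2 called 1, 0 and 1 lower. Their lowest p values belonged to Prdm1 and Tnfrsf17 (0.51), Ccr9 (-0.99) and Siglech (-1.24), and Klrk1 (-0.56) and Klrb1c (-0.20), where brackets hold log2 fold changes.

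The genes whose pattern over the 6 libraries was most like that of Ciita were ranked among 9519 genes with a mean of at least 5 CPM, pseudogenes and predicted gene models left out, by Pearson r of log2 CPM. Among the first 8 were Nectin1, Trim44, Pogz, Sulf2, H2-Eb2, Apol7c and Col27a1, with r from 0.995 to 0.998. Nectin1 encodes a cell adhesion molecule and Sulf2 a sulfatase of heparan sulfate. Nectin1 stood at 30.6, 30.7 and 34.6 CPM in MI and at 17.4, 16.4 and 18.5 CPM in MI+RDN. These 7 genes were all called lower, and r over so few libraries rests largely on the difference between the groups. For deviations from the group means, r with Ciita was between 0.90 and 0.98 for the 7. Because the 7 were picked by r over the same libraries, that choice favoured high values within groups too. Rfx5 came at rank 27 (r = 0.99, and 0.90 within groups), and the class II targets between rank 5 (H2-Eb2) and rank 386 (H2-DMa). The other factors came between rank 1066 (Nfya, r = 0.81) and rank 5038 (Nfyb, r = -0.16).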

How the data were processed

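The authors deposited 1 table of raw counts per Ensembl gene with a column for each of 6 libraries, which totalled 21663440 to 28013900 counts. The submitters' processing notes name FastQC 0.11.2, STAR and the build GRCm39. For the counting tool, its annotation and strand setting: not given in the sources used here. Symbols were matched by Ensembl ID to GENCODE M21 (GRCm38), which named 55154 of 55335 IDs. Counts were fitted in R 4.3.3 with edgeR 4.0.16 (filterByExpr, TMM, quasi-likelihood F test, all 6 libraries, no covariates, Benjamini-Hochberg adjustment over 14849 genes, threshold 0.05). Each standard error is the size of the log2 fold change divided by the root of its F statistic. Log2 CPM used a prior count of 2. Alternatives used DESeq2 1.42.0, limma 3.58.1 (voom), other scaling factors and filters, a replicate block, marker means as covariates, and each library left out. The procedure was tested on simulated counts in which genes varied independently, so shifts in cell type content were not covered. The 8 factors, all lists and the rule for named genes (every factor and class II target, passing members of other lists or else the 2 with the lowest p, the 8 genes most like Ciita) were chosen with earlier results of these data known. Some genes that the rule names are not reported here. Plots come from matplotlib 3.10.9 in Python 3.11.15.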

Additional observations from a re-analysis of the deposited data

How the results depend on the processing

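The log2 fold change of Ciita kept its sign under all 16 alternatives. It missed the threshold with the B cell (-0.81) and dendritic cell (-0.65) covariates and without each of 3 libraries, with -1.24 to -1.04 over the 6 fits that left out 1 library. Of the 8 factors, 1 was lower without a filter, with limma-voom and with the replicate block, 0 with either covariate, and 0 to 1 with a library left out. Of the 10 class II targets, 1 was lower without a filter, 0 with either covariate and 0 to 3 with a library left out, and their median log2 fold change was -0.54 and -0.35 with the covariates. The count over all tested genes (150) became 475 without scaling factors, 290 at a mean of at least 5 CPM, 1165 with the DESeq2 Wald test, 21 without a filter, 87 with the replicate block, 13 and 0 with the B cell and dendritic cell covariates, and 0 to 67 with a library left out (edgeR, with 2084 or more genes at an unadjusted p below 0.05 in the fits that left out a library). Whether the library removed or the smaller number of samples lowered it was not tested. The all-gene median of log2 fold changes, 0.0080, was -0.13 without scaling factors.

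The sign of some log2 fold changes that were not called turned. Rfxap had -0.11 without scaling factors, -0.0077 with the B cell covariate, and -0.084 to 0.099 with a library left out (below 0 for replicate 1 of either group, -0.045 for that of MI+RDN). Nfyb had -0.098 without scaling factors and -0.040 to 0.11 with a library left out (below 0 for MI+RDN replicate 2). Nfyc had 0.0050 without a filter, 2e-04 with DESeq2, and -0.088 to 0.084 with a library left out (0.017 for MI replicate 2, 0.084 for MI+RDN replicate 3). With the dendritic cell covariate H2-DMa had 0.15, Ccr9 0.088, Spic 0.21 and Nlrc5 -0.091. Spic had 0.090 with the B cell covariate. Tnfrsf17, at about 1 CPM, had -0.48 to 0.97 with a library left out (-9e-04 for MI replicate 2, -0.48 for MI+RDN replicate 3). The cause was not tested.

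Same-numbered libraries had correlations of their deviations from the group means of 0.018, -0.065 and 0.064. Differently numbered libraries had correlations from -0.106 to 0.094. For Ciita and the class II targets, replicate 3 was the highest library in both groups. So few libraries cannot settle whether the replicate numbers of the labels mark pairs. In the replicate block fit Ciita had a log2 fold change of -1.15 (edgeR adjusted p = 0.0381).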
